A study of Mus musculus with 6 samples.

Results

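The genes described here encode proteins of the mitochondrial ribosome. They were taken as the protein-coding genes of GENCODE vM21 whose symbol is Mrpl or Mrps followed by a digit, which gave 78 genes, 49 of the large subunit (Mrpl) and 29 of the small subunit (Mrps) by symbol. All 78 were among the 46078 genes in the count tables, all 78 passed the low-count filter, and they lie on 17 chromosomes. Total RNA of mice was sequenced in 3 libraries whose genotype is given as juvenile myelomonocytic leukemia (JMML) and 3 given as wild type (WT). JMML is a blood cancer of early childhood with excess monocytic and granulocytic cells, and by the title of the series the mice model this disease with blood formation that stays fetal. The labels give no tissue, age, strain or allele for either group, so what the WT libraries share with the JMML libraries is not known beyond the species and the library kit. They do not say that replicates are separate animals. The p-values below set the difference between the groups against the spread among samples of the same group, which may not be a spread between animals.

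The mitochondrial ribosome translates the small set of messages that the mitochondrial genome keeps, all of them for membrane subunits of the respiratory chain and ATP synthase. Its RNAs come from mitochondrial DNA, whereas its proteins are made from nuclear genes in the cytosol and imported. Compared with its bacterial relative it has lost RNA and gained proteins, so that some subunits have bacterial counterparts and others occur in mitochondria alone.

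Totals were 91976512 to 108395459 counts in JMML and 47096464 to 61656272 in WT. The share of counts that fell on the 78 genes was 0.241%, 0.245% and 0.266% in JMML (replicates 1, 2 and 3, the order kept throughout) and 0.267%, 0.234% and 0.218% in WT. Those shares overlapped between the groups. After TMM scaling, which sets library sizes from the bulk of the genes, the summed level was 2706, 2521 and 2788 normalized counts (CPM, counts scaled to a common library size) in JMML and 2534, 2113 and 2109 in WT, and JMML replicate 2 lay just under WT replicate 1. Sample identifiers carry the letter F in JMML replicates 1 and 2 and the letter M elsewhere, so the letter is partly confounded with the group. JMML replicate 3 and WT replicate 3 share an identifier prefix that is not explained. In bulk RNA, fewer cells of a type and less RNA per cell cannot be told apart.

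Part of the mitochondrial ribosomal protein genes were higher in JMML, none was lower, and the changes were small. By the quasi-likelihood test of edgeR, with p-values adjusted after Benjamini and Hochberg over all 18097 tested genes, 11 of 78 passed an adjusted p of 0.05, all of them higher in JMML. Of the large subunit, 10 of 49 (20.4%) were higher and 39 did not pass. Of the small subunit, 1 of 29 (3.45%) was higher and 28 did not pass. Over all tested genes 12.4% were higher and 13.8% lower, so the 14.1% of members called higher lay close to the background, while 0 called lower lay below it. Among tested protein-coding genes alone 14.7% were higher and 14.2% lower. The median log2 fold change of JMML over WT was 0.25 for the large subunit (from −0.22 to 0.76) and 0.19 for the small subunit (from −0.21 to 0.66), against −0.02 for all tested genes and 0.01 for all tested protein-coding genes. The fold change was above 0 in 37 of 49 and 22 of 29 genes, 75.6% of all 78, against 48.5% of all tested genes. At an unadjusted p under 0.05, 15 large-subunit and 7 small-subunit genes differed. These 22 of 78 were a smaller share than the 7400 of all 18097 tested genes. Whether the subunits differ from each other was not tested. With library totals alone as the scaling, the median of all genes shifted by −0.18 to −0.21, and 27.0% of all calls were higher in place of 47.4%. The medians of the members then were 0.06 and 0.00, with 43 of 78 above 0, and 1 member, Mrpl33, was called. The distance of the members' median from that of all genes was 0.25 under both scalings. A change of scaling moves all genes nearly alike, so this distance could hardly change and is no check of the scaling. With the length trend removed, as described below, the distance was 0.14, and 0.09 with the length of the longest coding transcript.

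**Figure D1:**
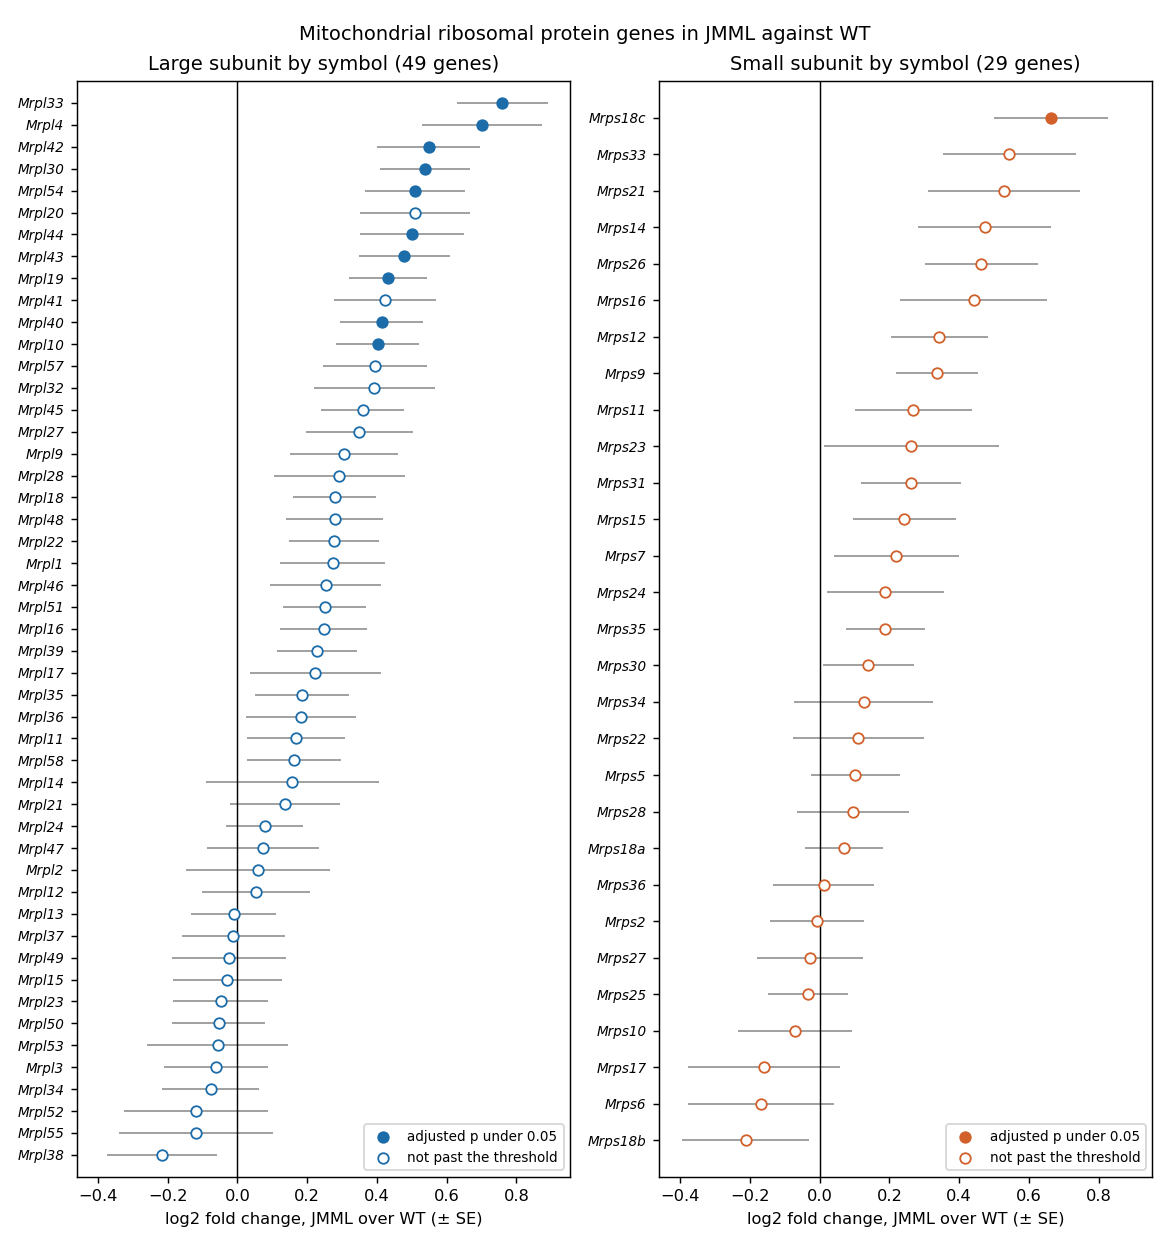
Log2 fold change of JMML over WT (horizontal axis) for each of 49 large-subunit genes (left) and 29 small-subunit genes (right), with standard errors as bars; filled points passed an adjusted p of 0.05 and open points did not. The 11 filled points all lie right of 0, from 0.40 to 0.76, and 59 of 78 points lie right of 0.

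A simpler count, with no test but on the same TMM-scaled CPM, was of genes whose 3 JMML libraries all lay above all 3 WT libraries. This held for 22 of 49 large-subunit genes (44.9%), 7 of 29 small-subunit genes (24.1%) and 22.9% of all tested genes. In 0 of 78 members did all JMML libraries lie below all WT libraries, against 24.6% of all tested genes.

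The windows shown next are promoter stretches of members with a large increase that hold a match to the motif of NRF1, the ETS family, YY1 or an E-box. They come from RefSeq promoter windows on GRCm38.p6, which take 250 bases before and 50 bases from the start. Capitals mark the match, and position 0 is the first transcribed base. The motifs were GCGC, any 2 bases and GCGC for NRF1, CCGGAAG for ETS factors such as GABP, AAGATGG for YY1 and CACGTG for the E-box bound by Myc and its relatives, searched on both strands. None of these motifs contains another.
Mrpl33, ETS, positions −15 to 14, chr5:31613936-31613965, plus strand: cccgcgcatgccCCGGAAGtagtcgttgag
Mrpl30, NRF1, positions −93 to −64, chr1:37890384-37890413, plus strand: tgacgccgctGCGCCTGCGCtgtcttctat
Mrps18c, E-box then ETS on the minus strand of the gene, positions −171 to −142, chr5:100798588-100798617, plus strand: ccccgggtCACGTGaCTTCCGGcccgggaa
Mrpl42, YY1, positions 15 to 44, chr10:95501905-95501934, minus strand: ccagattgaagcAAGATGGcgagcgcgcgg
Mrpl45 is added because the 160 bases before its start hold 2 NRF1 matches, a choice made after the matches were seen: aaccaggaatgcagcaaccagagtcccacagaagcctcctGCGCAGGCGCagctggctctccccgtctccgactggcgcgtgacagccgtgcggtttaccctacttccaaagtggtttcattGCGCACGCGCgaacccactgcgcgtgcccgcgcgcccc (chr11:97315556-97315715, plus strand).

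Mrpl33 had the largest increase and the smallest p of all 78 genes. It encodes the counterpart of bacterial ribosomal protein L33, a short protein of the large subunit, and lies at chromosome 5, 31596935 to 31664384 (GRCm38, plus strand). Its level was 92.1, 76.6 and 68.9 CPM in JMML and 48.0, 48.0 and 44.3 CPM in WT. The lowest JMML library stood well above the highest WT library. The log2 fold change was 0.76 ± 0.13 (SE, n = 3 against 3), a fold of 1.69, with an adjusted p of 0.00804 in edgeR's quasi-likelihood test. Its exons share 261 bases on the same strand with the noncoding gene Gm43809, which had 0.222 CPM in JMML and 0.0653 CPM in WT, far under the level of Mrpl33. The call held in 17 of 19 alternative settings. It ended with the identifier letter as a covariate (0.56) and with only the libraries marked M (0.60), both of which rest on JMML replicate 3 alone against WT.

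Mrpl4, Mrpl42, Mrpl30 and Mrpl54 followed among the large-subunit genes. Mrpl4 encodes uL4, which lines the exit tunnel through which the new chain leaves the ribosome. Its level was 44.6, 54.7 and 54.4 CPM in JMML and 37.1, 24.9 and 32.5 CPM in WT, without overlap and with WT replicate 2 lowest. It rose by 0.70 ± 0.17 on the log2 scale (adjusted p = 0.025, edgeR). The call ended without JMML replicate 2 (0.67), JMML replicate 3 (0.68), WT replicate 2 (0.56) or WT replicate 3 (0.76). Mrpl42, a protein with no bacterial counterpart, had 45.5, 45.9 and 53.6 CPM in JMML and 38.3, 28.2 and 32.7 CPM in WT. All JMML libraries were above WT, by 0.55 ± 0.15 (adjusted p = 0.0334, edgeR), and the call ended without JMML replicate 2 (0.60), JMML replicate 3 (0.49), WT replicate 2 (0.45) or WT replicate 3 (0.58).

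Mrpl30, the counterpart of bacterial L30, had 68.7, 56.4 and 69.7 CPM in JMML and 49.3, 42.6 and 42.2 CPM in WT. Its groups were apart by 0.54 ± 0.13 (adjusted p = 0.0228, edgeR), with JMML replicate 2 nearest to WT, and the call ended without JMML replicate 1 (0.51), JMML replicate 3 (0.51), WT replicate 2 (0.50) or WT replicate 3 (0.54). Mrpl54, another protein of mitochondria alone, had 44.5, 37.2 and 40.3 CPM in JMML and 33.0, 25.3 and 27.4 CPM in WT. The increase was 0.51 ± 0.14 (adjusted p = 0.0381, edgeR). Of single libraries left out, the call held without WT replicate 1 only (0.67) and ended without each of the other 5 (0.43 to 0.59).

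The remaining called genes of the large subunit, of which Mrpl10, Mrpl40 and Mrpl43 were named after their values were seen, rose by 0.40 to 0.50 on the log2 scale. Mrpl44, a protein with a domain like that of RNase III, had 34.4, 41.6 and 46.6 CPM in JMML and 31.4, 26.6 and 28.7 CPM in WT (0.50 ± 0.15, adjusted p = 0.0439, edgeR). Mrpl19, the counterpart of bacterial L19, had 55.1, 65.9 and 61.3 CPM in JMML and 47.4, 43.9 and 44.0 CPM in WT (0.43 ± 0.11, adjusted p = 0.0283). Mrpl43 had a fold change of 0.48 ± 0.13 (adjusted p = 0.0348), Mrpl40 of 0.41 ± 0.12 (adjusted p = 0.041) and Mrpl10, which carries the stalk proteins, of 0.40 ± 0.12 (adjusted p = 0.0445). In all 5 the JMML libraries lay above the WT libraries. Of single libraries left out, the call of Mrpl44, Mrpl43 and Mrpl19 held without JMML replicate 1 only (0.62, 0.57 and 0.51), and those of Mrpl40 (0.38 to 0.51) and Mrpl10 (0.34 to 0.50) ended whichever of the 6 was left out. Mrpl20 missed the threshold (0.51 ± 0.16, adjusted p = 0.0513), as did Mrpl45 (0.36 ± 0.12, adjusted p = 0.0605), which sits where the ribosome meets the inner membrane and had 44.5, 52.3 and 46.4 CPM in JMML and 40.0, 35.5 and 36.1 CPM in WT.

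Several called genes share exonic bases with a neighbour, and the strand setting of the counting is not given in the sources used here, so their counts are uncertain to that extent. On the opposite strand, Mrpl19 shares 1962 bases with Gcfc2, Mrpl43 shares 507 with Twnk, the mitochondrial DNA helicase, Mrpl10 shares 240 with Gm11574, and Mrpl44 shares 126 with Wdfy1. None of these 4 neighbours was called, and Twnk had a fold change of −0.55 ± 0.18 (adjusted p = 0.0584), the opposite sign to Mrpl43. In all, 33 of 78 members overlap another gene. Among the 27 large-subunit genes that do not, 5 were higher with a median of 0.25. Among the 18 such small-subunit genes 0 were higher in edgeR's test, at a median of 0.22, and 5 had an unadjusted p under 0.05. Over all 18097 tested genes 7400 had one, a larger share.

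**Figure D2:**
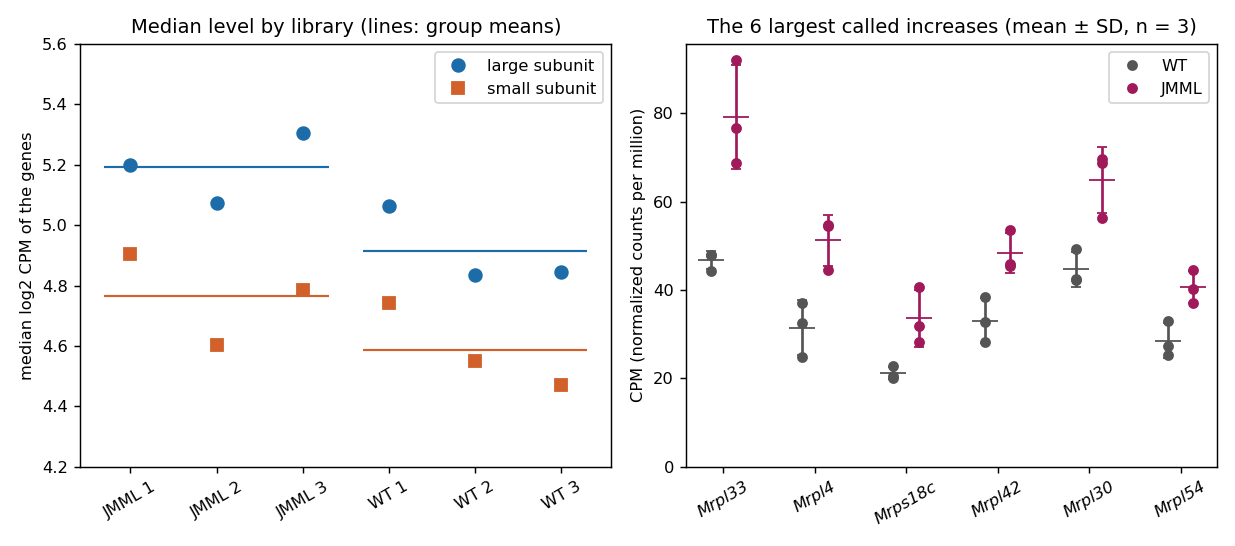
Left, median log2 CPM of the 49 large-subunit genes (circles) and 29 small-subunit genes (squares) in each library, with lines at the group means; right, CPM of the 6 members with the largest called increases, as single libraries with mean and SD (n = 3). In the left panel JMML replicate 2 and WT replicate 1 lie near each other, and in the right panel no JMML point lies below a WT point of the same gene.

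Of the large-subunit genes named for their role, whatever their values, Mrpl44 alone passed the test. Mrpl4 and Mrpl10, which also passed, were named for their values. Mrpl12, the stalk protein that brings translation factors to the ribosome, had 54.2, 51.8 and 54.9 CPM in JMML and 64.0, 47.0 and 44.3 CPM in WT. WT replicate 1 exceeded every JMML library, and the fold change was 0.05 ± 0.15 (adjusted p = 0.827, edgeR). Mrpl11, at the base of the stalk, had a fold change of 0.17 ± 0.14. For Mrpl3 and Mrpl2, which reach toward the peptidyl transferase centre, it was −0.06 ± 0.15 and 0.06 ± 0.21. Mrpl23 at the tunnel exit was at −0.05 ± 0.14, with 14.5 to 17.7 CPM in JMML and 16.6 to 17.5 CPM in WT. Mrpl58, a peptidyl-tRNA hydrolase built into the subunit, was at 0.16 ± 0.13. The lowest value in the large subunit was that of Mrpl38 (−0.22 ± 0.16, adjusted p = 0.339), named after its value was seen.

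In the small subunit the 1 called gene was Mrps18c, which encodes the counterpart of bacterial S18 and lies at chromosome 5, 100798627 to 100804471 (plus strand). It had 40.7, 28.2 and 31.8 CPM in JMML and 20.6, 20.2 and 22.7 CPM in WT. All JMML libraries lay above WT, replicate 1 furthest, and the fold change was 0.66 ± 0.16 (adjusted p = 0.0251, edgeR), a fold of 1.58. The call ended without WT replicate 1 (0.69) or WT replicate 2 (0.62). Its exons share 250 bases on the same strand with Gm43511, which had 1.57 CPM in JMML and 1.60 CPM in WT.

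Mice have 3 Mrps18 genes, of which Mrps18c alone passed the test; differences among the 3 were not tested. Mrps18a had 28.3, 28.2 and 26.8 CPM in JMML and 26.2, 25.9 and 27.2 CPM in WT, a fold change of 0.07 ± 0.11. Mrps18b had 17.0, 21.7 and 23.1 CPM in JMML and 27.2, 25.1 and 19.4 CPM in WT, with overlapping groups and a fold change of −0.21 ± 0.18 (adjusted p = 0.417), the lowest of the small-subunit symbols. In structures of the mammalian ribosome Mrps18b and Mrps18c sit in the small subunit, but Mrps18a and Mrps30 sit in the large one, and Mrps36 is a part of the 2-oxoglutarate dehydrogenase complex. Mrps30 was at 0.14 ± 0.13 and Mrps36 at 0.01 ± 0.14. Assigned by structure, 10 of 51 large-subunit genes were higher with a median of 0.23, and 1 of 26 small-subunit genes with a median of 0.20.

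Other small-subunit genes of known role also did not pass. Mrps12, which lies at the decoding centre, had 22.9, 24.3 and 26.6 CPM in JMML and 21.8, 17.8 and 18.5 CPM in WT, above WT in every library but not past the threshold (0.34 ± 0.14, adjusted p = 0.106, edgeR). Mrps16 had 40.9, 28.7 and 40.0 CPM in JMML and 33.4, 21.2 and 26.1 CPM in WT, with overlap (0.44 ± 0.21, adjusted p = 0.16). Mrps5, Mrps7 and Mrps22, of which the first lies near the entry of the message, were at 0.10 ± 0.13, 0.22 ± 0.18 and 0.11 ± 0.19. The small-subunit genes next in p after Mrps18c were Mrps26 (0.46 ± 0.16, adjusted p = 0.0724), Mrps9 (0.34 ± 0.12, adjusted p = 0.0726) and Mrps33 (0.54 ± 0.19, adjusted p = 0.0731).

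Per kilobase of exon, averaged over all 6 libraries, levels of large-subunit genes ranged from 2.92 to 59.3 CPM with a median of 15.7, and those of small-subunit genes from 2.57 to 34.3 with a median of 9.08. The highest were Mrpl18 (59.3), Mrpl54 (41.9) and Mrpl34 (41.2), and the lowest were Mrps10 (2.57), Mrpl17 (2.92) and Mrps17 (3.31). None of these but Mrpl54 was called, with fold changes of 0.28 ± 0.12 for Mrpl18, −0.08 ± 0.14 for Mrpl34, 0.22 ± 0.19 for Mrpl17, −0.07 ± 0.16 for Mrps10 and −0.16 ± 0.22 for Mrps17. That order depends on the length used: per kilobase of the longest coding transcript, Mrpl33 was highest at 131.7 CPM, ahead of Mrpl18 at 68.0, whereas per kilobase of all its annotated exons it had 8.60. The summed level per kilobase of the large over the small subunit was 2.35, 2.47 and 2.47 in JMML and 2.43, 2.37 and 2.56 in WT. The balance of the subunits thus overlapped between the groups.

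Members shared part of their order between libraries. The median log2 CPM of the large-subunit genes was 5.20, 5.07 and 5.30 in JMML and 5.06, 4.84 and 4.84 in WT, so JMML replicate 2 exceeded WT replicate 1 by little. For the small subunit it was 4.91, 4.60 and 4.79 in JMML and 4.74, 4.55 and 4.47 in WT, and there WT replicate 1 exceeded JMML replicate 2. WT replicate 1 was above both other WT libraries in 66 of 78 genes (84.6%), against 31.9% of all tested genes. JMML replicate 2 was below both other JMML libraries in 45 (57.7%, against 30.3%) and below WT replicate 1 in 45 as well (57.7%, against 51.1%). The lowest of the 6 libraries was WT replicate 2 or 3 in 61 genes, and the highest was a JMML library in 55, mostly replicate 1 or 3, and WT replicate 1 in 22. Leaving out WT replicate 1 raised the medians to 0.36 and 0.32, and leaving out WT replicate 2 lowered them to 0.20 and 0.10. Of all 78 members, 7, 3 and 2 were called when JMML libraries 1, 2 and 3 were left out in turn, and 7, 1 and 2 when the WT libraries were. As shares these were 8.97%, 3.85%, 2.56%, 8.97%, 1.28% and 2.56%. Of all tested genes 10.5%, 8.19%, 9.5%, 7.67%, 5.56% and 9.0% were called higher in the same fits. The members' share was the larger only without WT replicate 1.

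Exon length bears on these values because the difference between the groups fell with length over the whole table. Among protein-coding genes that are no members, the median log2 fold change was 0.41 for genes with under 1 kb of exon, 0.23 for 1 to 2 kb, 0.11 for 2 to 4 kb, −0.04 for 4 to 8 kb and −0.24 for 8 kb and over. The members are short, with a median of 2394 bases of exon against 4396 over tested protein-coding genes. In the same classes the members' medians were 0.28 (9 genes), 0.26 (22 genes), 0.22 (25 genes), 0.16 (18 genes) and 0.08 (4 genes). Short members thus lay below or near other coding genes of their length, and members of 2 kb and over lay above them. Of the 11 called genes 1, 5, 3, 2 and 0 fell in these classes.

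Removing the trend with a smooth curve of each library's deviation on log2 exon length left 12.9% of all tested genes called higher and 12.5% lower. It left 5 of 49 large-subunit genes and 1 of 29 small-subunit genes higher, 7.69% of the members, and 0 lower. The medians became 0.15 for the large and 0.12 for the small subunit, against −0.01 for all genes and 0.05 for all tested protein-coding genes. Again 59 of 78 values were above 0, of which 53 were above 0 in both fits and 6 only with the trend removed. Members with under 1 kb of exon then had a median of 0.05, below the 0.18 of other coding genes of that length, and in the longer classes the medians were 0.12 against 0.09, 0.16 against 0.09, 0.21 against 0.02 and 0.23 against 0.00. Mrpl33 (0.86 ± 0.14, adjusted p = 0.00688), Mrpl4 (0.66 ± 0.17, adjusted p = 0.0283), Mrpl42 (0.55 ± 0.14, adjusted p = 0.0304), Mrpl30 (0.53 ± 0.12, adjusted p = 0.0227) and Mrpl19 (0.48 ± 0.11, adjusted p = 0.0176) passed in both fits. Mrps18c, with a short 1076 bases of exon, went from 0.66 to 0.44 (adjusted p = 0.0713), and Mrpl54, with 825 bases, from 0.51 to 0.27 (adjusted p = 0.149). Mrpl44, Mrpl43, Mrpl40 and Mrpl10 also did not pass, at 0.37, 0.34, 0.30 and 0.28. Mrps9, the counterpart of bacterial S9, passed only with the trend removed (0.39 ± 0.12, adjusted p = 0.0486), at 48.8, 45.5 and 43.2 CPM in JMML and 33.2, 39.4 and 36.4 CPM in WT.

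**Figure D3:**
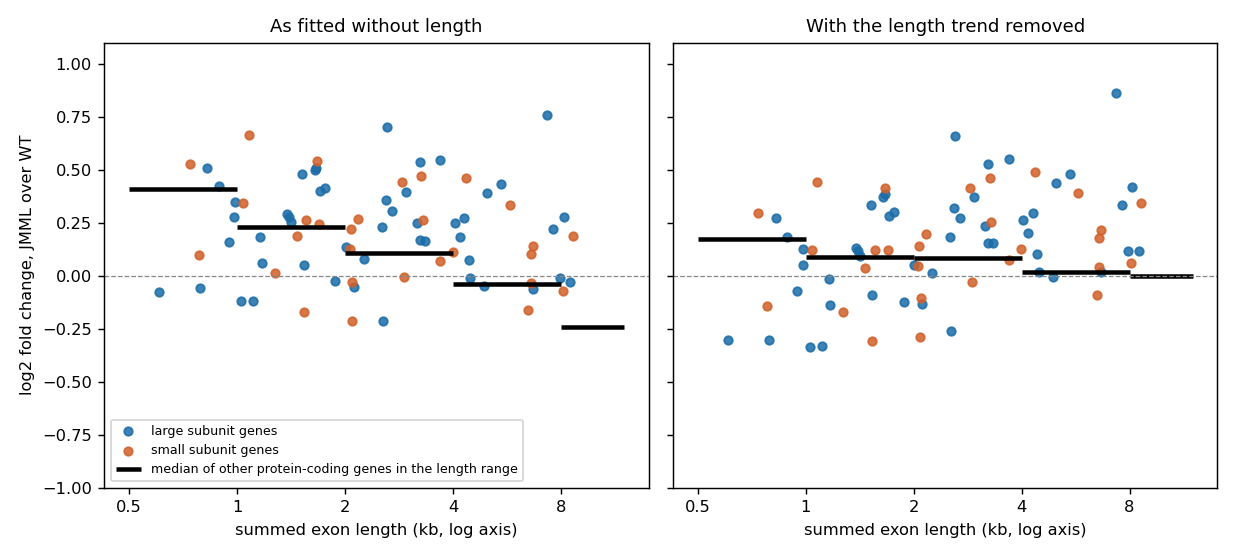
Log2 fold change of JMML over WT against summed exon length (kb, log axis) for 49 large-subunit and 29 small-subunit genes, as fitted without length (left) and with the length trend removed (right); black bars are medians of other protein-coding genes in each class, the last of which takes all genes of 8 kb and over. On the left the bars descend from 0.41 to −0.24 and the longer members lie mostly above them; on the right the bars lie between 0.00 and 0.18.

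The form of the correction matters. Applied without centring each library, it shifted the median of all genes by 0.22 and called 18 members higher, 12 and 6, with medians of 0.36 and 0.33. Those 18 were 23.1% of the members, beside 20.5% of all tested genes and 24.8% of tested protein-coding genes called higher. With the length of the longest coding transcript in place of all exons, 3 large-subunit genes and 1 small-subunit gene were higher, and the median over all 78 was 0.08 against −0.02 for all genes. These calls were 5.13% of the members, beside 12.7% of all tested genes called higher. Mrpl33, Mrpl30 and Mrpl19 stayed called there, whereas Mrpl4 and Mrpl42 did not. The lengths are far apart for Mrpl33 (7326 bases of exon, 478 of coding transcript) and Mrpl42 (3682 and 666), so their corrected values depend on the length used. Among the 78 genes the fold change had a Pearson r of −0.08 with log2 exon length before the removal and 0.39 after it, and of 0.40 with log2 mean CPM before and 0.51 after. These are descriptions over genes of the same 6 libraries, which share depth and scaling.

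Other sets of translation and energy genes also held genes that were higher in JMML. Of 76 genes of cytosolic ribosomal proteins, 7 (9.21%) were higher and 0 lower, with a median of 0.34. With the length trend removed 3 (3.95%) were higher, at 0.23. Over all tested genes 12.4% were called higher and, with the trend removed, 12.9%, so both of these counts lay under the background. Of 78 tested nuclear genes for respiratory chain and ATP synthase subunits, 32 (41.0%) were higher and 1 lower, with a median of 0.40, and 13 and 1 with the trend removed, at 0.29. With a library left out, the 32 became 16 to 21 or, without WT replicate 2, 1 at a median of 0.36, and the 7 became 1 to 8, with 1 at a median of 0.27 without WT replicate 2. With the longest coding transcript as length, the 32 became 4 (5.13%) at 0.20 and the 7 became 1 (1.32%) at 0.095. Of all tested genes 12.7% were then higher. Library totals alone gave 6 (7.69%) and 1 (1.32%), beside 7.07% of all tested genes. A block on the replicate number gave 9 (11.5%) and 1 (1.32%), beside 7.5%. The difference between these sets and the mitochondrial ribosomal protein genes was not tested.

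Of the 5 ribosome proteins without the Mrp prefix, 1 was higher. Aurkaip1, a small-subunit protein, had 55.0, 40.6 and 47.3 CPM in JMML and 36.2, 23.2 and 27.1 CPM in WT, without overlap, and rose by 0.72 ± 0.20 (adjusted p = 0.0339, edgeR); the call held in 11 of 19 settings and ended without JMML replicate 1 (0.62), JMML replicate 3 (0.75), WT replicate 2 (0.58) or WT replicate 3 (0.72). Chchd1, also of the small subunit, was at 0.32 ± 0.19, Gadd45gip1 of the large subunit at 0.07 ± 0.14, Dap3, a GTP-binding protein of the small subunit, at 0.06 ± 0.13, and Ptcd3, an RNA-binding protein of the small subunit, at −0.21 ± 0.17.

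Of 27 ribosome assembly genes 1 (3.70%) was higher and 0 lower, with a median of 0.06, beside the 12.4% higher and 13.8% lower over all tested genes. That gene was Grsf1, an RNA-binding protein of mitochondrial RNA granules, at 86.9, 93.4 and 91.7 CPM in JMML and 75.5, 75.6 and 68.1 CPM in WT (0.31 ± 0.10, adjusted p = 0.0494, edgeR), a call that held in 4 of 19 settings; the count became 2 lower and 0 higher with library totals alone, 1 lower and 0 higher with 50 counts in 3 libraries, and 0 to 1 higher with a library left out. Ddx28, Dhx30 and Rbfa were at 0.46 ± 0.16, −0.34 ± 0.12 and 0.34 ± 0.12. Of 16 translation factor genes 2 (12.5%) were higher, a share near that of all genes, and 0 lower, with a median of 0.04; with a library left out 1 was higher or, without WT replicate 2, 0. Slirp, which binds and stabilizes mitochondrial messages, had 40.1, 24.6 and 31.0 CPM in JMML and 16.5, 18.8 and 17.0 CPM in WT, without overlap (0.87 ± 0.19, adjusted p = 0.0176), and lost its call without WT replicate 2 (0.93). Its partner Lrpprc was at −0.19 ± 0.14. Mtrf1, a release factor, had 10.6, 9.81 and 10.3 CPM in JMML and 7.28, 6.96 and 7.48 CPM in WT (0.50 ± 0.15, adjusted p = 0.043), with the call held in 4 of 19 settings and ended by leaving out any single library (0.47 to 0.57).

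Of 20 mitochondrial tRNA synthetase genes 0 were higher and 1 was lower, with a median of −0.04. Lars2, which charges leucine, had 12.2, 11.1 and 7.64 CPM in JMML and 79.4, 30.9 and 18.3 CPM in WT, with a wide spread in WT. It fell by 2.06 ± 0.51 on the log2 scale (adjusted p = 0.0257, edgeR), and the call ended without JMML replicate 1 (−2.18), JMML replicate 2 (−2.10), JMML replicate 3 (−1.86) or WT replicate 2 (−2.24). Of 14 genes for copying and transcribing mitochondrial DNA 0 were called in either direction in edgeR's test, 1 had an unadjusted p under 0.05, and the median was 0.09. Other settings called them in both directions: 1 was lower with the DESeq2 Wald test, library totals alone or 50 counts in 3 libraries, 1 was higher with the length correction on the longest coding transcript, and 2 were higher with the uncentred one.

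Of 13 protein genes encoded by the mitochondrial genome itself 0 were higher and 1 (7.69%) was lower in edgeR's test, with a median of 0.05, against 12.4% and 13.8% of all tested genes. With the length trend removed 3 were lower, and with a library left out 0 to 2 were lower and 0 were higher, except that without WT replicate 3 1 was higher and 1 lower. mt-Nd5, a subunit of complex I, had 450.0, 341.3 and 262.1 CPM in JMML and 619.2, 1000 and 579.8 CPM in WT (−1.06 ± 0.27, adjusted p = 0.028, edgeR), and the call ended without JMML replicate 2 (−1.02), JMML replicate 3 (−0.86) or WT replicate 2 (−0.78). The small ribosomal RNA mt-Rnr1 had 1434, 1451 and 1029 CPM in JMML and 2032, 3239 and 2020 CPM in WT (−0.90 ± 0.24, adjusted p = 0.0326). It lost its call when any 1 of the JMML libraries was left out (−0.96 to −0.73) or WT replicate 2 (−0.64). The large ribosomal RNA mt-Rnr2 was at −0.27 ± 0.29 (adjusted p = 0.507). The library kit depletes ribosomal RNA, so levels of these RNAs depend on how far each library was depleted.

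Of 10 regulators of nuclear genes for mitochondria 0 were higher and 3 were lower, with 2 to 5 lower when a library was left out. With the identifier letter as a covariate or only libraries marked M, 0 were lower, and with the length correction on the longest coding transcript or uncentred, 2 were higher beside 3 lower. The transcription factor gene Myc had 36.4, 43.0 and 42.2 CPM in JMML and 94.1, 88.1 and 63.6 CPM in WT, without overlap (−1.02 ± 0.17, adjusted p = 0.0069, edgeR). Its relative Mycn fell by 1.57 ± 0.31 (adjusted p = 0.0125). Both calls ended with the identifier letter as a covariate (−0.96 and −1.55) and with only libraries marked M (−0.92 and −1.51), and held in 17 of 19 settings. Ppargc1a, a coactivator of mitochondrial biogenesis, had 0, 6 and 4 counts in JMML and 24, 25 and 22 counts in WT, and it was lower (adjusted p = 0.0185) at a level that gives its fold change little precision. The call of Ppargc1a ended without WT replicate 2 (−3.36). Nrf1, Gabpa and Yy1, factors that bind promoters of many nuclear genes for mitochondria, were at −0.02, 0.20 and 0.09, none called.

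**Figure D4:**
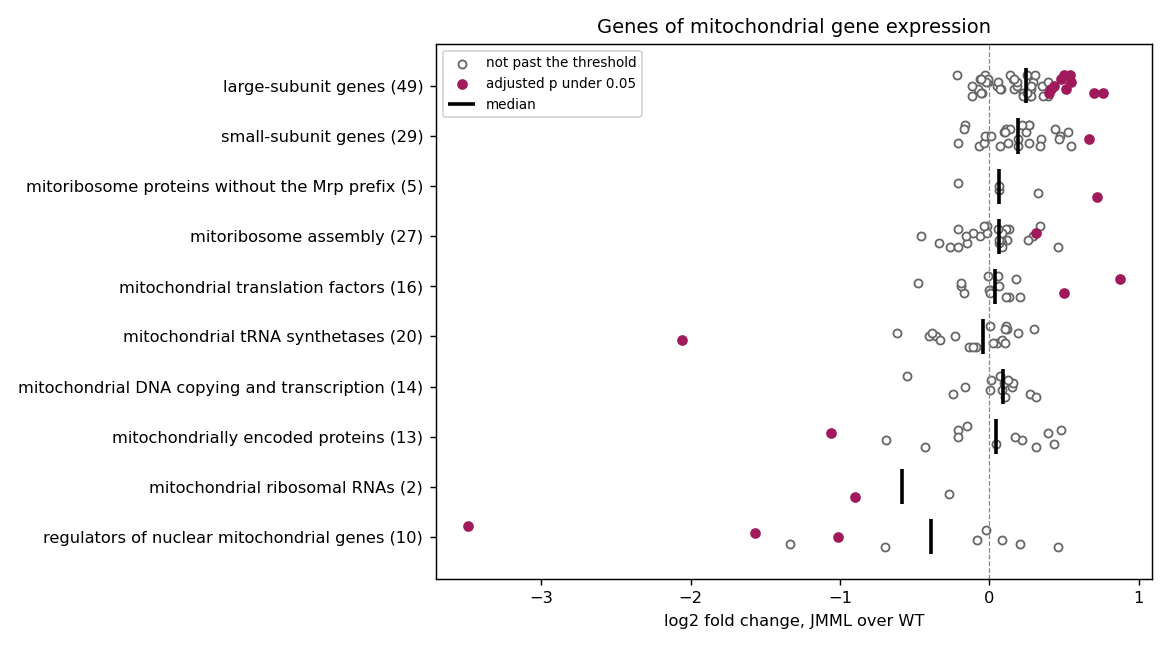
Log2 fold change of JMML over WT (horizontal axis) for tested genes of 10 sets of mitochondrial gene expression, with filled points for an adjusted p under 0.05, open points for the rest and bars at medians. The values are from the fit without length. The large-subunit and small-subunit medians, 0.25 and 0.19, are the highest of the 10, and the called points left of 0 belong to the tRNA synthetase, mitochondrially encoded, ribosomal RNA and regulator sets. With the length trend removed, which is not drawn, these 2 medians were 0.15 and 0.12, and the next highest was 0.08.

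Beyond the stretches of Mrpl33, Mrpl30, Mrps18c, Mrpl42 and Mrpl45 printed above, the motifs were counted in all windows. RefSeq windows were found for 69 of 78 members, 75 windows in all. The ETS motif was in 34.7% of the members' windows, against 8.86% of all 32851 windows and 16.0% of 13963 windows of tested protein-coding genes. The NRF1 motif was in 18.7% against 6.23% and 11.9%, and the YY1 motif in 17.3% against 6.34% and 6.63%. The E-box was in 9.33% against 7.15% and 9.41%. Any of the 4 was in 64.0% of the members' windows, against 24.5% and 36.2%. By subunit, the ETS motif was in 15 of 43 large-subunit and 11 of 26 small-subunit genes with a window, and the NRF1 motif in 11 and 3. Of the 8 called members with a window 6 held a match, 3 of them ETS, 2 NRF1, 1 YY1 and 1 an E-box, and of all 69 members 46 held one. A match is a run of letters and no evidence of binding.

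Many of these genes start back to back with another gene. For 23 of 78 members, a gene on the opposite strand started from 300 bases inside to 1000 bases upstream of the member's own start, at a median distance of 66 bases. All 23 partners were tested, and 3 were higher, 3 lower and 17 not called, with a median of 0.03. Those shares were near the 12.4% higher and 13.8% lower over all tested genes. The calls of member and partner did not coincide in the same direction in any pair. Mrps18c, which rose by 0.66, starts 29 bases from Helq, a DNA helicase gene, which fell by 0.59 ± 0.18 (adjusted p = 0.0498, edgeR). Of single libraries left out, that call held without JMML replicate 3 only. Mrpl32, at 0.39 ± 0.17 without a call, starts 75 bases from the proteasome gene Psma2, which rose by 0.60 ± 0.10 (adjusted p = 0.00767) and was called in 19 of 19 settings. Mrpl49, at −0.02 ± 0.16, starts 59 bases from Fau, which encodes a cytosolic ribosomal protein and rose by 0.57 ± 0.13 (adjusted p = 0.0177; 0.53 and not called without WT replicate 2). The other called partners were Klc4, beside Mrpl2 and higher, and Gga3 and Eme2, beside Mrps7 and Mrps34 and lower. Their calls held in 8, 12 and 4 of 19 settings. Over the 23 pairs, which share promoter sequence and all libraries, Pearson's r between the fold changes was 0.06.

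Markers of blood and other cells differed between the same libraries, and their part in the results above was not tested. No marker was at 0 counts in any library. The summed level of 8 B-cell markers was 13.5 to 20.2 CPM in JMML and 113.0 to 427.7 CPM in WT, and all 8 were lower. All 8 T-cell markers were lower as well (11.8 to 18.6 against 38.6 to 64.0 CPM), as were all 8 megakaryocyte and platelet markers (18.5 to 38.8 against 310.4 to 972.9 CPM) and 6 of 8 red cell markers (150.6 to 469.7 against 1228 to 1651 CPM). Of 8 monocyte markers 5 were higher (3448 to 6266 against 2406 to 2649 CPM), and of 8 neutrophil markers 3 (11940 to 14550 against 7653 to 11960 CPM). Of 8 macrophage markers 1 was higher and 4 were lower (224.0 to 426.8 against 490.1 to 810.9 CPM), and of 8 endothelial and stromal markers 7 were lower (975.7 to 1461 against 912.8 to 2848 CPM). Of 12 proliferation genes 0 were higher and 1 was lower, with a median of 0.06. With a library left out, the lower counts were 6 to 8 for B cells, 4 to 7 for T cells, 8 for platelets, 1 to 8 for red cells, 3 to 5 for macrophages and 4 to 7 for endothelium and stroma, and the higher counts 4 to 7 for monocytes and 2 to 4 for neutrophils.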

How the data were processed

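The authors deposited whole-number raw counts for each Ensembl gene, not normalized. The kit was one for stranded total RNA with depletion of rRNA, per the labels' protocols. Per the submitters' processing notes the build was GRCm38 and the aligner named is STAR 2.5.3a. StringTie 1.3.3b and DESeq2 1.22.2 are also named, without a role. For the counter, annotation release, strand setting and mates, nothing is stated in the sources used. Of values from 1 to 20, 51.6% to 58.8% were even, so both mates of a pair may have been counted.

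Of 46078 identifiers 45229 matched GENCODE vM21 (98.2%), the source of symbols, positions and lengths. Counts were tested with edgeR 4.0.16 (R 4.3.3) with its quasi-likelihood F test (filterByExpr, TMM), with Benjamini-Hochberg adjustment over 18097 genes. CPM are counts scaled to the TMM library size. The standard error is |log2 fold change| over the root of F. The length trend was removed by a loess offset per library on log2 exon length (span 0.5), centred in each library. The script was tested on simulated data. Counts of no 2 libraries of the same group agreed within sampling noise.

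Named members were the 6 largest called increases and decreases, the 4 smallest p of each subunit, members of well known role, and the 3 highest and 3 lowest per length. From each pathway list the 4 genes with the smallest p were taken, and all proteins without the prefix. The members and lists were chosen with earlier results of these data known. Alternatives were other scalings, DESeq2 1.42.0, limma-voom (limma 3.58.1), other filters, thinning, a block on the replicate number, the letter of the identifiers, libraries left out, other length corrections and other member sets. For genes that are no members the alternatives were run after the data were seen. Same-numbered libraries did not deviate together (correlations of −0.20, 0.05 and −0.14). So few libraries cannot exclude a pairing, and whether replicate numbers pair libraries is not known. Protein sequences were not used here.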

Additional observations from a re-analysis of the deposited data

How the results depend on the processing

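No member was called lower in any alternative, and no called gene changed sign. Of the 11 called members, all 11 stayed called with DESeq2 size factors, the DESeq2 Wald test, limma-voom and thinning to the smallest total, 9 without the low-count filter and 8 with 50 counts in 3 libraries. Large-subunit genes called higher, 10 as reported, were 1 with library totals alone, 0 with the identifier letter as a covariate, 0 with only libraries marked M, 5 with the length trend removed, 3 with the longest coding transcript as length, 5 with overlapping members left out, and 1 to 6 with a replicate left out. Small-subunit genes, 1 as reported, were 2 with the DESeq2 Wald test or no filter, 6 with the length correction uncentred, 0 with library totals, the letter, M only or overlapping members left out, and 0 to 1 with a replicate left out. The median of the large subunit was 0.0628 and that of the small subunit 0.0038 with library totals alone; with a replicate left out they were 0.20 to 0.36 and 0.10 to 0.32. With the letter and in M only the medians over all 78 were 0.26 and 0.30, with 71 and 74 above 0, so fewer calls there came with no smaller median. With the length trend removed, the large subunit had 5 called, which became 12 uncentred, 3 with the longest coding transcript, 3 without overlapping members and 1 to 6 with a replicate left out. The small subunit had 1, which became 6 uncentred and 0 to 1 with a replicate left out. Their medians became 0.36 and 0.33 uncentred, and 0.11 to 0.27 and 0.0915 to 0.31 with a replicate left out. Calls over all genes, 4737 as reported, were 2219 with the letter, 2310 in M only and 2203 to 4003 with a replicate left out. They were 4607 with the trend removed, and then 2121 to 3964 with a replicate left out. The share of all tested genes called higher, 12.4% as reported, was 7.07% with library totals alone and 5.56% to 10.5% with a replicate left out. It was 12.9% with the trend removed, 20.5% uncentred, 12.7% with the longest coding transcript, and 5.84% to 11.1% with the trend removed and a replicate left out.

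With the replicate number as a block, 1 large-subunit gene (Mrpl33), 0 small-subunit genes and 2809 genes in all were called. With the block and the length trend removed these were 1, 0 and 2565. Whether the numbers pair libraries is not known, and the medians with the block were 0.25 and 0.19. The cause of these differences was not tested. Members had 336 to 8614 counts per library, and whether depth limits these results was not tested beyond thinning to the smallest total, where all 11 calls held.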
